A study of Mus musculus with 9 samples.

Results

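The HOX genes of the mouse lie in 4 clusters, Hoxa on chromosome 6, Hoxb on chromosome 11, Hoxc on chromosome 15 and Hoxd on chromosome 2. They were taken as every entry of both deposited comparison tables whose symbol was Hoxa, Hoxb, Hoxc or Hoxd followed by a number, which gave 39 of 57010 gene identifiers: 11 Hoxa, 10 Hoxb, 9 Hoxc and 9 Hoxd genes. The number in the symbol is the paralogue position, from 1 to 13. Each gene encodes a homeodomain transcription factor that gives cells their position along the body axis. Genes with low numbers are switched on first and in the more anterior tissues, and those with high numbers later and more posteriorly, in the order in which they lie along the chromosome. In mouse lung, Hoxa5 and several Hoxb genes are known mainly from the mesenchyme, where Hoxa5 is needed for the airway and the alveoli to form, and some HOX genes also act in blood cells.

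RNA was sequenced from 9 mouse organoid libraries in 3 groups of 3. GSK was small cell lung cancer organoids treated with an agent that the labels name only GSK, SCLC was small cell lung cancer organoids, and Normal was organoids of normal lung. The agent's identity, dose and time, the alleles and strain of the tumours, the age of the animals and whether libraries of a group came from separate animals or cultures are not stated in the sources used here, so p-values measure only the spread between these libraries. The tables compared SCLC with Normal and GSK with a control that was taken as SCLC, because its means matched those of SCLC over 13634 genes.

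The tables give no value for a single library. Each gene has the mean normalized count over the 6 libraries of a comparison, the log2 fold change with its standard error, and p-values. Group means below are the ones implied by that mean and that fold change, in normalized counts. The implied totals over all genes were 31.9 M counts for GSK, 42.0 M for SCLC and 44.7 M for Normal (M, mega). A gene is called detected in a group here when its implied mean was above 1, which equals 3 counts over the 3 libraries. In organoids, fewer cells of a type and less RNA per cell cannot be told apart.

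The promoters of 4 genes are shown because the results turn on them. Hoxa5 and Hoxb4 had the highest counts in GSK, Hoxd8 was detected in GSK alone, and Hoxb8 showed the widest gap between GSK and Normal among genes above 1 in both. The GSK mean of Hoxb8 was 1.17, close to the threshold of 1. The sequences are the 250 bases before the start site in RefSeq's table for GRCm38.p6, written 5′ to 3′ along the gene. They lie at chr6:52204588-52204837 on the minus strand, chr11:96318017-96318266 on the plus strand, chr11:96281655-96281904 on the plus strand and chr2:74704365-74704614 on the plus strand. Capitals mark matches to the motifs searched on both strands: CCAAT (the CCAAT box), TATAAA (the TATA box), TGATTNAT (a site bound by PBX and HOX proteins together) and TAATTA (a homeodomain core). None of these motifs contains another.
Hoxa5: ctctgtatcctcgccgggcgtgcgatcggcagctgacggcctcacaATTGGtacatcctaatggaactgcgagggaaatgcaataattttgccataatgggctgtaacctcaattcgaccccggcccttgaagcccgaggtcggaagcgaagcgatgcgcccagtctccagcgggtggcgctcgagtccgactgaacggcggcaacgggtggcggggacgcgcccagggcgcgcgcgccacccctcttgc
Hoxb4: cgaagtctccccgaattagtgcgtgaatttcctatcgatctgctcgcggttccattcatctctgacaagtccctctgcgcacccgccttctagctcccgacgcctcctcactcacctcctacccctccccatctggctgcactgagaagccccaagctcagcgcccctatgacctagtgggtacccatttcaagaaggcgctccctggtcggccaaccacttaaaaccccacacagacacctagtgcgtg
Hoxb8: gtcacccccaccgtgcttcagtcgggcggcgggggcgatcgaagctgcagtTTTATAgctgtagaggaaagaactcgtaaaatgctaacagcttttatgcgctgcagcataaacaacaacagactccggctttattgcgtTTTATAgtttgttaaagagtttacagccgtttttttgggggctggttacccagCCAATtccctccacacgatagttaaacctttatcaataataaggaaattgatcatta
Hoxd8: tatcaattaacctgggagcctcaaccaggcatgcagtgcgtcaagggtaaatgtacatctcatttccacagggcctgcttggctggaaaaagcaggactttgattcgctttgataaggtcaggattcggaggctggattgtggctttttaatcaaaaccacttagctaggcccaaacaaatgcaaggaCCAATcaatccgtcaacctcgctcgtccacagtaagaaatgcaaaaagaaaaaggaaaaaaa
The Hoxa5 window held a CCAAT box 204 bases before the start, the Hoxd8 window a CCAAT box 62 bases before it, and the Hoxb8 window a CCAAT box at 57 bases and TATA boxes at 199 and 110 bases. The Hoxb4 window held none of the 4 motifs. RefSeq's table had 24 windows for 22 of the 39 genes, and 14 of the 24 held a CCAAT box, against 33.8% of all 32851 promoter windows of the same length. TATA boxes were in 4 of the 24 (12.4% of all windows), the PBX-HOX site in 2 (2.82% of all) and the homeodomain core in 2 (4.84% of all). The median number of CpG dinucleotides was 12.5 in the HOX windows and 6 in all windows, and the 4 windows printed held 28 in Hoxa5, 14 in Hoxb4, 12 in Hoxb8 and 6 in Hoxd8.

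HOX RNA was present in GSK and Normal organoids and was not detected in SCLC organoids. Of the 39 genes, 17 had an implied mean above 1 in GSK, 0 in SCLC and 19 in Normal. Summed over all 39, the implied means were 538 in GSK, 2.30 in SCLC and 528 in Normal, or 16.8, 0.0547 and 11.8 per M counts of each group's total. The tables were scaled separately, so levels of GSK and Normal are set side by side here without a test. The detected genes lay in Hoxa and Hoxb with few exceptions. GSK had 8 Hoxa, 7 Hoxb, 0 Hoxc and 2 Hoxd genes above 1, and Normal had 9 Hoxa, 7 Hoxb, 2 Hoxc and 1 Hoxd gene.

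**Figure D1:**
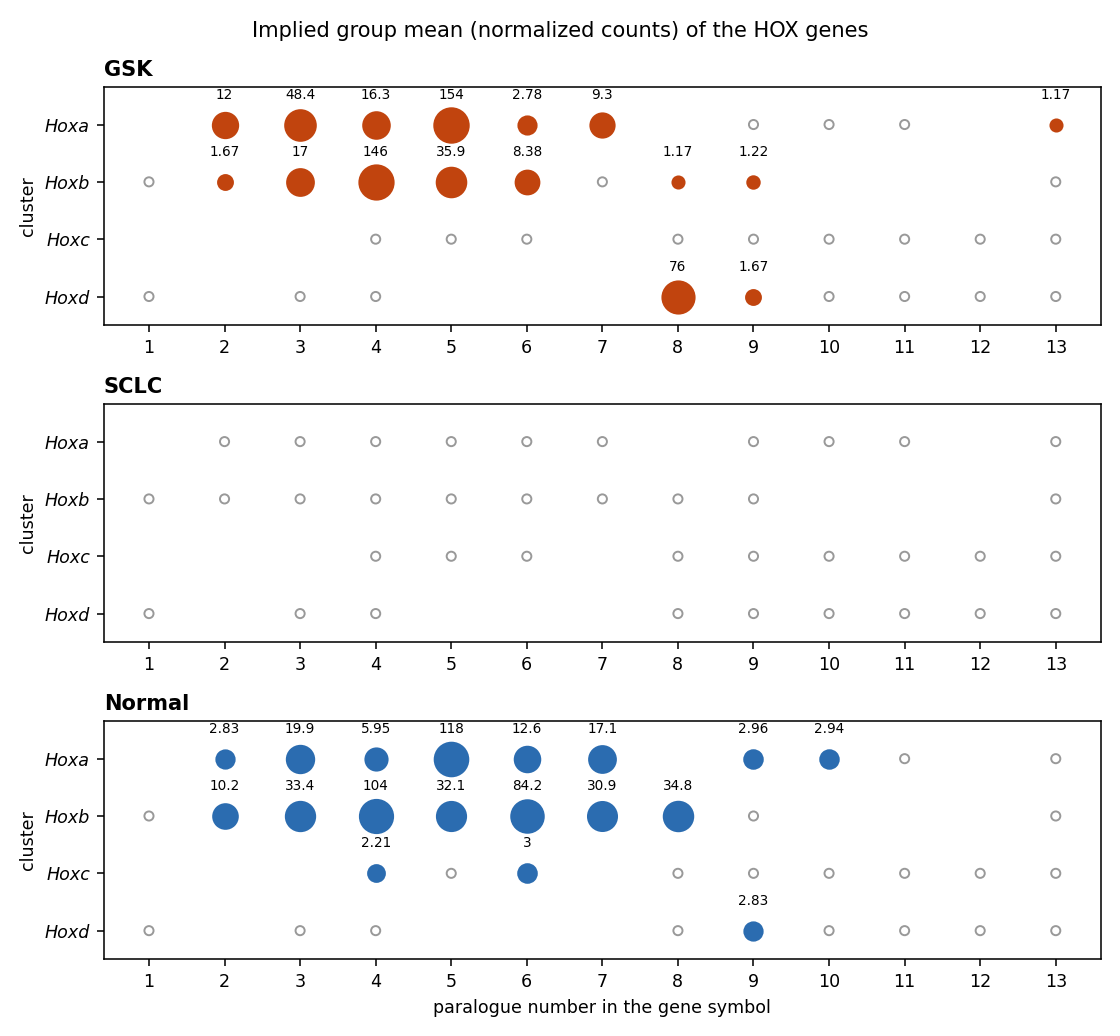
Implied mean in normalized counts of 38 HOX genes in GSK, SCLC and Normal, with the cluster down the side and the paralogue number along the bottom. Filled circles are above 1, with the value printed and the circle's size growing with it, and open circles are at or under 1. In Normal, filled circles take positions 2 to 7 of Hoxa and 2 to 8 of Hoxb. Hoxa9, Hoxa10, Hoxc4, Hoxc6 and Hoxd9 are also filled there, each under 3. The SCLC panel holds no filled circle, and Hoxd8 stands out at 76.0 in GSK.

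In GSK the detected genes nearest to the threshold were Hoxa13 and Hoxb8, both at 1.17, and the highest genes under it were Hoxc4 and Hoxd4, both at 0.783. In Normal the lowest detected gene was Hoxc4 at 2.21, and the highest under the threshold was Hoxb9 at 0.733. The implied SCLC means of the HOX genes that had any count ranged from 0.035 to 0.158 in the table with Normal and from 0.0409 to 0.173 in the table with GSK. Over 1753 genes listed at 0 in all SCLC and Normal libraries and above 1 in GSK, the same calculation returned an SCLC mean with a median of 0.0859 and a highest value of 0.0888. Values of that size do not show that a read was present. In the table with GSK, 5 HOX genes lay above that highest value in SCLC: Hoxa5 at 0.172, Hoxa7 at 0.173, Hoxb9 at 0.163, and Hoxc4 and Hoxd4 at 0.0924. Hoxd4 is listed at 0 in SCLC in the other table. Folds against SCLC are therefore given as lower bounds, against the floor of 3 counts per group.

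SCLC organoids had less HOX RNA than Normal organoids across Hoxa and Hoxb. In the authors' deposited table, 12 of the 39 genes were lower in SCLC at an adjusted p under 0.05, and 0 were higher. Over all genes tested, 25.1% were called lower and 25.3% higher. A further 6 had an adjusted p and did not pass, and 21 had none. Only genes with enough counts in at least 1 group receive an adjusted p, so with SCLC means of 0.158 or less a HOX gene entered the test through its level in Normal, and none could be called higher. The 12 were Hoxa3 to Hoxa7 and Hoxb2 to Hoxb8, an unbroken run of positions in each cluster. At an unadjusted p under 0.05 the authors' deposited table had 13 lower and 0 higher.

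Hoxb4, which can expand mouse blood stem cells when added to them, had an implied mean of 0.0812 in SCLC and 104 in Normal. This is at least 104-fold lower in SCLC, with a log2 fold change of -10.32 ± 1.28 (standard error) and an adjusted p of 7.51e-15 in the authors' deposited table. Hoxa5, the lung mesenchyme gene, had 0.158 in SCLC and 118 in Normal, at least 118-fold lower. Its log2 fold change in the authors' deposited table was -9.54 ± 1.31 (adjusted p = 2.2e-12). Hoxb6, active in lateral mesoderm and early blood cells, had 0.0812 in SCLC and 84.2 in Normal (log2 fold change -10.02 ± 1.38, adjusted p = 3.31e-12 in the authors' deposited table).

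Other Hoxb genes of the run, 5 in all, lay at 0.0811 or under in SCLC and between 10.2 and 34.8 in Normal. Hoxb8, used to hold mouse myeloid progenitors in culture, had 34.8 in Normal, Hoxb3 had 33.4, Hoxb5 had 32.1, Hoxb7 had 30.9 and Hoxb2 had 10.2. Their log2 fold changes in the authors' deposited table lay between -8.75 ± 1.58 for Hoxb8 (adjusted p = 1.41e-07) and -6.98 ± 1.87 for Hoxb2 (adjusted p = 0.000562). Hoxb2 and Hoxb3 pattern the hindbrain, and Hoxb5 is a lung mesenchyme gene whose loss together with Hoxa5 disturbs the alveoli in mice.

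Levels in Hoxa other than Hoxa5 were lower. Hoxa3, needed for the thymus and parathyroid, had 0.0809 in SCLC and 19.9 in Normal (log2 fold change -7.94 ± 1.58, adjusted p = 2.02e-06 in the authors' deposited table). Hoxa7 had 0.158 in SCLC and 17.1 in Normal, Hoxa6 had 0.0809 in SCLC and 12.6 in Normal, and Hoxa4 had 0.0804 in SCLC and 5.95 in Normal. Hoxa4, Hoxa6 and Hoxa7 help to set the identity of the vertebrae. Adjusted p-values in the authors' deposited table were 1.95e-05 for Hoxa7, 2.24e-05 for Hoxa6 and 0.00692 for Hoxa4.

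The 7 other genes detected in Normal lay between 2.21 and 2.999, and none was called. Among them were Hoxa2 (2.83), which patterns the hindbrain and the pharyngeal arches, Hoxa9 (2.96) and Hoxa10 (2.94), known from blood progenitors, Hoxc4 (2.21), Hoxc6 (2.999) and Hoxd9 (2.83). Their fold changes in the authors' deposited table were negative, from -5.24 ± 3.84 for Hoxc6 to -4.81 ± 3.28 for Hoxc4. Adjusted p was 0.134 for Hoxa9, 0.143 for Hoxa10, 0.151 for Hoxa2 and Hoxd9 and 0.256 for Hoxc6 in the authors' deposited table, which gave none for Hoxc4. At means near 3 counts a difference from SCLC was not detectable at this depth.

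GSK organoids had more HOX RNA than SCLC organoids, again in Hoxa and Hoxb and also at Hoxd8. In the authors' deposited table, 10 of the 39 genes were higher in GSK and 0 were lower, where 21.6% of all genes tested were called higher and 15.5% lower. A further 2, among them Hoxa6, had an adjusted p and did not pass, and 27 had none. With every HOX gene at 0.173 or less in SCLC, the 12 genes with an adjusted p received it through their level in GSK, and none could be called lower. At an unadjusted p under 0.05 there were 11 higher and 0 lower in the authors' deposited table. Both comparisons contain the SCLC group, so the low SCLC values enter both, and the GSK changes are no independent repeat of the first comparison.

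Hoxa5 had an implied mean of 154 in GSK and 0.172 in SCLC, at least 154-fold higher in GSK (log2 fold change 9.81 ± 1.34, adjusted p = 6.54e-12 in the authors' deposited table). Hoxb4 had 146 in GSK and 0.088 in SCLC, at least 146-fold higher, with a log2 fold change of 10.69 ± 1.31 and an adjusted p of 8.56e-15 in the authors' deposited table. Hoxd8, which acts with other Hoxd genes in patterning the trunk and limbs, had 76.0 in GSK and 0.0874 in SCLC (log2 fold change 9.77 ± 1.28, the authors' deposited table giving an adjusted p of 6.45e-13). The other table lists Hoxd8 at 0 in all 6 libraries of SCLC and Normal, so it was the one gene of the 10 with no count in Normal.

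Hoxa3 followed with 48.4 in GSK and 0.0884 in SCLC, and Hoxb5 with 35.9 in GSK and 0.0885 in SCLC. Their adjusted p-values in the authors' deposited table were 7.3e-09 and 3.82e-08. Hoxb3 (17.0 in GSK), Hoxa4 (16.3), Hoxa2 (12.0), Hoxa7 (9.30) and Hoxb6 (8.38) completed the 10, each against 0.173 or less in SCLC. The smallest of these changes in the authors' deposited table was that of Hoxa7, at 5.74 ± 1.78 on the log2 scale (adjusted p = 0.00509). It ended above 0.05 when the change was tested against a log2 fold change of 1 instead of 0, with an adjusted p of 0.0584.

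The remaining 7 genes detected in GSK were between 1.17 and 2.78. Hoxa6 had 2.78, with an adjusted p of 0.100 in the authors' deposited table. Hoxb2 and Hoxd9 both had 1.67, Hoxb9 had 1.22, and Hoxa13 and Hoxb8 both had 1.17, none with an adjusted p. Hoxa13 is a gene of the limb ends and the urogenital tract, and with Hoxb9 and Hoxd8 it was above 1 in GSK and not in Normal. The standard errors of Hoxa13, Hoxb2, Hoxb8, Hoxb9 and Hoxd9 in the authors' deposited table were 3.17 to 4.02 on the log2 scale, and their level in GSK rests on few counts.

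**Figure D2:**
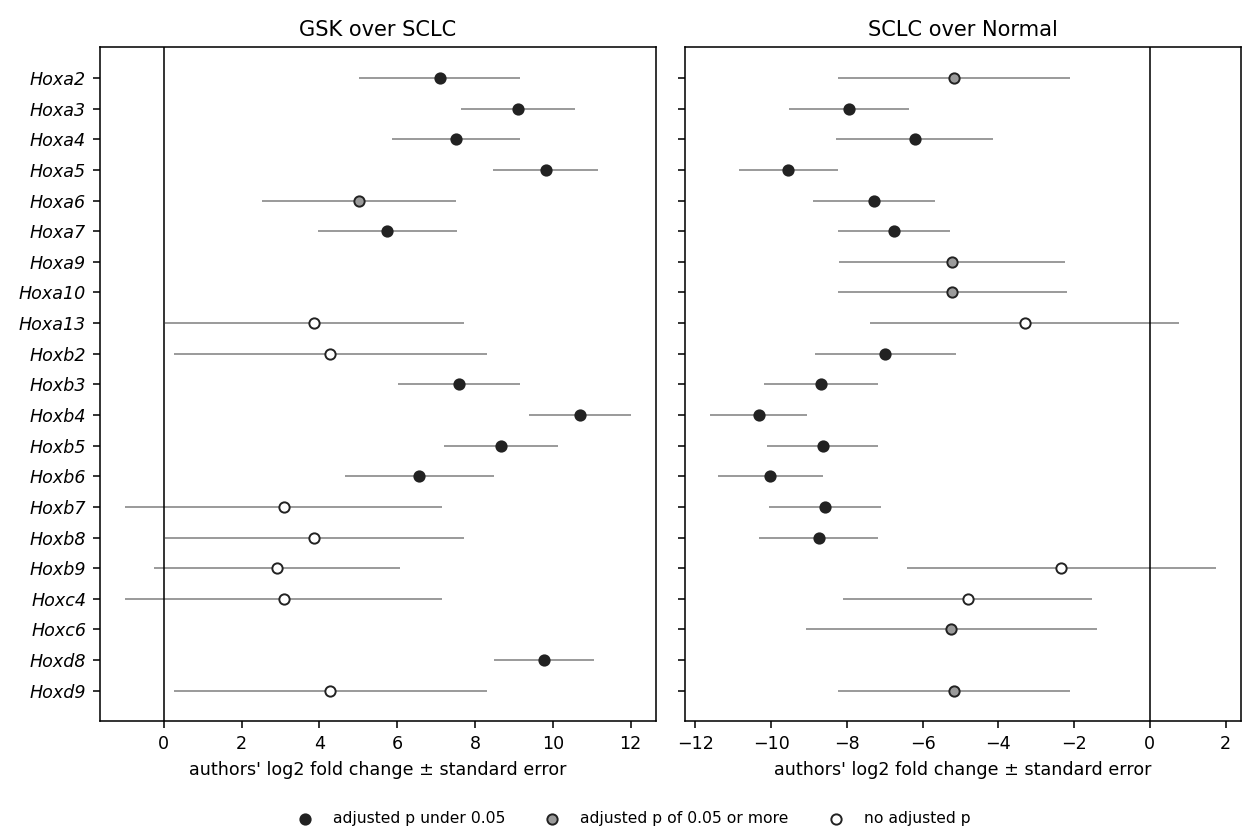
The authors' log2 fold changes with standard errors (bars) for 21 of the 22 HOX genes detected in at least 1 group, GSK over SCLC on the left and SCLC over Normal on the right. Black points have an adjusted p under 0.05, grey points one of 0.05 or more and white points none, and a gene with no point is listed at 0 in both groups. Every point on the left lies above 0 and every point on the right below 0.

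Of the 19 HOX genes detected in Normal, 14 were also above 1 in GSK (73.7%). Among all genes above 1 in Normal and under 1 in SCLC, 3296 in number, 60.0% were above 1 in GSK, and the difference between these shares was not tested. The 5 detected in Normal and not in GSK were Hoxa9, Hoxa10, Hoxb7, Hoxc4 and Hoxc6. Of these, Hoxa9, Hoxa10 and Hoxc6 are listed at 0 in all GSK and SCLC libraries, and Hoxb7 had 0.664 in GSK against 30.9 in Normal. The 3 detected in GSK and not in Normal were Hoxa13, Hoxb9 and Hoxd8. Among 23356 genes listed at 0 in SCLC and Normal, 7.51% were above 1 in GSK and 114 had a GSK mean at least that of Hoxd8. Of the 11 HOX genes so listed, Hoxd8 was the one above 1.

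Within Hoxb the levels of GSK and Normal parted between positions 5 and 6. Hoxb2 to Hoxb5 together had 200.1 in GSK and 179.9 in Normal, while Hoxb6 to Hoxb8 had 10.2 in GSK and 149.9 in Normal. Per M counts of each group's total, Hoxb2 to Hoxb5 had 6.27 in GSK and 4.02 in Normal. Hoxb6 to Hoxb8 had 0.320 in GSK and 3.35 in Normal on that scale. Hoxb6 was 10.1 times and Hoxb8 29.7 times higher in Normal than in GSK. The Hoxb8 ratio rests on a GSK mean of 1.17, near the threshold of 1, and its size is uncertain. Hoxb7 lay under the threshold in GSK, at 0.664, and no ratio is given for it. Position alone did not set the order, since Hoxb2 had 1.67 in GSK and 10.2 in Normal, and Hoxb3 had 17.0 in GSK and 33.4 in Normal. In Hoxa, the implied mean in GSK was 4.23 times that in Normal for Hoxa2, 2.44 times for Hoxa3, 2.74 times for Hoxa4 and 1.31 times for Hoxa5. For Hoxa6 the order was the other way, 2.78 in GSK and 12.6 in Normal. None of these GSK to Normal ratios was tested, and they are not adjusted for the group totals of 31.9 M in GSK and 44.7 M in Normal.

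**Figure D3:**
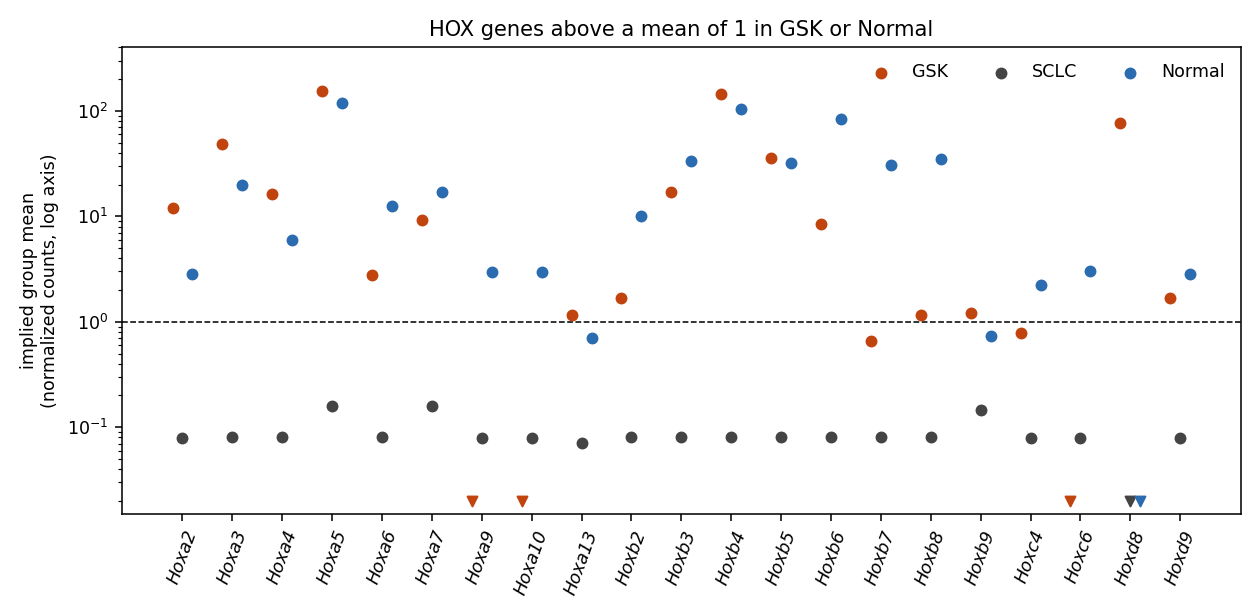
Implied group mean (log axis) of 21 of the 22 HOX genes detected in at least 1 group, in GSK, SCLC (from the table with Normal) and Normal. The dashed line is the mean of 1, and triangles at the bottom mark a gene listed at 0. GSK and Normal lie close at Hoxa5, Hoxb4 and Hoxb5 and far apart at Hoxb6, Hoxb7, Hoxb8 and Hoxd8, and all SCLC points lie under the line.

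By paralogue position, RNA was found mainly at the low and middle numbers. Positions 1 to 4 summed to 245 in GSK, 0.641 in SCLC and 181 in Normal. Positions 5 to 8 summed to 289 in GSK, 0.801 in SCLC and 333 in Normal. The order of GSK and Normal at positions 5 to 8 turned round when each sum was taken per M counts of its group's total, with 9.04 in GSK and 7.44 in Normal. Positions 9 to 13 summed to 4.39 in GSK, 0.857 in SCLC and 13.2 in Normal, and 0 of their 16 genes were called in either comparison. Of these 16, none had an adjusted p in GSK against SCLC and 13 had none in SCLC against Normal, so most were not tested. At position 11 the 3 genes summed to 0 in GSK and 1.35 in Normal, and at position 12 both genes are listed at 0 in both tables.

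Per kilobase of exon (GENCODE M21 models, GRCm38), Hoxa5 had the highest level of the family in both groups, 82.2 in GSK and 62.9 in Normal. Next in GSK came Hoxb4 with 56.7, Hoxd8 with 27.7, Hoxb5 with 12.9 and Hoxa4 with 10.2. In Normal, Hoxa5 was followed by Hoxb6 with 42.9, Hoxb4 with 40.6, Hoxb7 with 20.0 and Hoxa6 with 14.4. Neighbours in these orders were not tested against each other, as no library values were used.

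The 17 genes at or under 1 in every group were Hoxa11, Hoxb1, Hoxb13, Hoxc5, Hoxc8 to Hoxc13, Hoxd1, Hoxd3, Hoxd4 and Hoxd10 to Hoxd13. Of these, 8 are listed at 0 in both tables, namely Hoxb1, Hoxc5, Hoxc8, Hoxc9, Hoxc12, Hoxd1, Hoxd11 and Hoxd12. Hoxc summed to 1.01 in GSK, the lowest of the 4 clusters there, to 0.309 in SCLC and to 6.08 in Normal. Hoxd summed to 79.1 in GSK, of which Hoxd8 made up 76.0, and had the lowest sum in Normal, at 3.63. In SCLC, Hoxd summed to 0.189 in the comparison with Normal. In the comparison with GSK the SCLC sums were 0.368 for Hoxd and 0.192 for Hoxc. SCLC sums of this size do not rank the clusters.

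HOX genes overlap one another and antisense RNAs, and how reads on shared exons were counted is not given in the sources used here. Of the 22 detected genes, 14 overlap another annotated gene in GENCODE M21, 7 on the same strand and 11 on the opposite one. Long Hoxa3 transcripts run over Hoxa4, Hoxa5 and Hoxa6 on the same strand, so the split of reads among these 4 is uncertain. Hoxb5 and Hoxb6 overlap the antisense gene Hoxb5os, and Hoxd8 overlaps Hoxd3os1. Hoxb4, Hoxb7 and Hoxb8 overlap no other annotated gene. The labels call the library kit stranded, and whether the counting used the strand is not given.

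Noncoding RNAs of the clusters were detected at few loci. Of 16 listed, 4 were higher and 0 lower in GSK than in SCLC, and 0 were higher and 3 lower in SCLC than in Normal, in the authors' deposited tables. Over all genes tested, 21.6% were higher and 15.5% lower in GSK, and 25.3% higher and 25.1% lower in SCLC. Only 6 of the 16 had an adjusted p in GSK against SCLC, and 3 in SCLC against Normal. With SCLC means of 1.59 or less, they received it through their level in GSK or Normal. Hoxd3os1, antisense to Hoxd8, had 8.43 in GSK and 0.0863 in SCLC (log2 fold change 6.61 ± 1.77, adjusted p = 0.000911 in the authors' deposited table) and is listed at 0 in Normal. Hoxaas2 had 7.67 in GSK, 0.0804 in SCLC and 7.28 in Normal, and Hoxaas3 had 5.42 in GSK, 0.08 in SCLC and 5.78 in Normal. Both RNAs passed in both of the authors' deposited tables. Halr1, a noncoding RNA beside the start of Hoxa, had 13.2 in GSK and 1.59 in SCLC (log2 fold change 3.06 ± 0.94, adjusted p = 0.00442 in the authors' deposited table), and had 1.16 in SCLC and 0.322 in Normal, with no adjusted p there. Hoxb5os, antisense to Hoxb5 and Hoxb6, had 0.0808 in SCLC and 16.1 in Normal (adjusted p = 4.57e-06 in the authors' deposited table) and is listed at 0 in GSK, where Hoxb5 had 35.9.

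HOX proteins bind DNA with TALE cofactors, the PBX, MEIS and PKNOX proteins, and all 9 of these genes were above 1 in every group. The counts of this and the following lists stand beside shares over all genes of 21.6% higher and 15.5% lower in GSK against SCLC, and 25.3% higher and 25.1% lower in SCLC against Normal. In GSK against SCLC 2 were higher and 2 lower in the authors' deposited table. Meis2 had 209 in GSK and 14.4 in SCLC (log2 fold change 3.86 ± 0.81, adjusted p = 1.38e-05 in the authors' deposited table), and Meis1 had 378 in GSK and 52.0 in SCLC (2.86 ± 0.51, adjusted p = 3.07e-07). Pknox2 fell to 127 in GSK, against 812 in SCLC, and Meis3 to 278 in GSK, against 814 in SCLC. In SCLC against Normal 2 were higher and 1 lower: Pknox2 had 752 in SCLC and 23.1 in Normal, Meis3 had 759 in SCLC and 377 in Normal, and Pbx2 had 1617 in SCLC and 5799.7 in Normal. The authors' deposited table gave an adjusted p of 6.01e-36 for Pknox2, of 0.0255 for Meis3 and 3.53e-13 for Pbx2.

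Genes that flank the clusters did not share 1 direction. Of 12, 3 were higher and 2 lower in GSK than in SCLC, and 2 were higher and 3 lower in SCLC than in Normal, in the authors' deposited tables. Skap1, a T cell adaptor gene beside Hoxb1, had 303 in GSK and 0.171 in SCLC (log2 fold change 10.79 ± 1.32, adjusted p = 7.9e-15 in the authors' deposited table). Ttll6, beyond Hoxb13, had 299.9 in GSK and 1.84 in SCLC, and Skap2, which flanks Hoxa, had 1549.9 in GSK and 549.6 in SCLC. Mtx2, beyond Hoxd1, fell to 1073 in GSK, against 2335 in SCLC. In SCLC against Normal, Skap2 had 503 in SCLC and 2206 in Normal, Calcoco1 had 1758 in SCLC and 9971 in Normal, Hibadh had 1488 in SCLC and 4629 in Normal, and Cbx5 had 14859 in SCLC and 4348 in Normal, all called in the authors' deposited table. The ParaHox genes, the closest relatives of the clusters, were at or under 1 in all groups, 6 of 6.

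Among known regulators of HOX genes, retinoic acid switches on genes of low number, MLL and menin complexes keep HOX genes active, and Polycomb complexes keep them silent. Of 17 retinoic acid genes, 0 were higher and 3 lower in GSK than in SCLC and 3 were higher and 4 lower in SCLC than in Normal, in the authors' deposited tables. These counts lie near or below the shares over all genes. Rarb, a receptor gene that retinoic acid itself induces, fell to 6.97 in GSK, against 445 in SCLC (log2 fold change -5.99 ± 0.88, adjusted p = 1.79e-10 in the authors' deposited table). Dhrs3 and Rxrb were the other lower genes in GSK. Aldh1a2, which makes retinoic acid, had 9033 in SCLC and 298 in Normal (4.92 ± 0.65, adjusted p = 2.29e-13 in the authors' deposited table), while Rxrg, Aldh1a1 and Rarg were lower in SCLC.

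Of 14 MLL and menin genes, 2 were higher and 7 lower in GSK than in SCLC, and 8 were higher and 3 lower in SCLC than in Normal, in the authors' deposited tables. Men1, which encodes menin, had 2509 in GSK and 5254 in SCLC (log2 fold change -1.07 ± 0.25, adjusted p = 0.000137 in the authors' deposited table). Wdr5 and Mllt1 were also lower in GSK, and Aff1 was higher, at 2686 in GSK and 1023 in SCLC. Kmt2a, which encodes MLL, was the other gene higher in GSK, at 18681.5 in GSK and 9903.5 in SCLC. Its adjusted p was 0.00534 in the authors' deposited table (log2 fold change 0.92 ± 0.29). In SCLC against Normal, Aff1 and the demethylase gene Kdm6a were lower in the authors' deposited table and Psip1, Wdr5 and Kmt2a were higher.

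Of 18 Polycomb genes, 0 were higher and 5 lower in GSK than in SCLC, and 8 were higher and 2 lower in SCLC than in Normal, in the authors' deposited tables. Cbx2 had 4792 in SCLC and 573 in Normal (log2 fold change 3.06 ± 0.30, the authors' deposited table giving an adjusted p of 9.04e-23). The methyltransferase gene Ezh2 had 3529 in SCLC and 679.99 in Normal (2.38 ± 0.28, adjusted p = 2.7e-16 in the authors' deposited table), and Phf19 and Phc1 were also higher in SCLC. The 5 lower in GSK were Phc2, Ring1, Cbx2, Cbx8 and Cbx6, with log2 fold changes from -1.30 to -0.61 in the authors' deposited table. Ezh2 had 4805 in GSK and 3812 in SCLC and did not pass (the authors' deposited table giving an adjusted p of 0.370). The median log2 fold change of all genes tested was 0.24 in GSK against SCLC and 0.10 in SCLC against Normal. Recentring on the median and equalising totals moved the GSK changes by -0.25 and -0.51, and these left 12 and 6 genes lower over the 8 related lists, in place of 19.

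Markers of other cell types differed between the groups along with the HOX genes. Each list is given as the sum of its implied means. The 10 fibroblast markers summed to 53279 in GSK and 426 in SCLC, all 10 called higher in GSK, and to 397 in SCLC and 28292 in Normal, all 10 called lower in SCLC. Large parts of these sums were Fn1, with 18320 in GSK and 16764 in Normal, and in GSK also Vim, with 19863. Col1a2, a collagen gene of fibroblasts, had 3436 in GSK, 5.22 in SCLC and 2568 in Normal. The lung mesenchyme transcription factors, 8 genes, summed to 3744 in GSK, 387 in SCLC and 2632 in Normal. Of these, 7 were higher in GSK than in SCLC and 7 lower in SCLC than in Normal in the authors' deposited tables. Tcf21 had 168 in GSK, 0.0812 in SCLC and 45.1 in Normal, and Tbx5 had 94.4 in GSK, 0.0811 in SCLC and 65.3 in Normal. Gli1 went against the list, with 21.7 in GSK, 33.2 in SCLC and 3.61 in Normal.

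Immune markers, 6 genes, summed to 117026 in GSK, 57.4 in SCLC and 109912 in Normal. Most of the sum in GSK and Normal was Lyz2, a lysozyme gene, with 94202 in GSK, 2.47 in SCLC and 108056 in Normal. The similar sums of GSK and Normal thus rest on this gene, and which cells carried its RNA was not tested. Csf1r had 5282 in GSK and 460 in Normal, and Cd68 had 2812 in GSK and 262 in Normal. Adgre1 had 1293 in GSK and 735 in Normal, and Itgam had 874 in GSK and 254 in Normal. The pan-leukocyte gene Ptprc had 12562 in GSK, 0.0812 in SCLC and 144 in Normal. The 6 endothelial markers summed to 16429 in GSK, 53.2 in SCLC and 131 in Normal. Alveolar type II markers, 6 genes, summed to 6734 in GSK, 4958 in SCLC and 2666020 in Normal. Of these, 4 were higher and 0 lower in GSK than in SCLC in the authors' deposited table. Sftpa1 had 604 in GSK and 5.52 in SCLC, and Sftpc had 1858 in GSK and 232 in SCLC. Abca3, with 2875 in GSK and 4511 in SCLC, and Etv5 were not called. Neuroendocrine markers, 6 genes, summed to 56991 in GSK, 125600 in SCLC and 18.7 in Normal. SCLC thus carried its neuroendocrine markers, and Normal those of alveolar type II cells. In SCLC, 9 of 10 fibroblast, 3 of 6 endothelial and 3 of 6 immune markers were above 1, among them Vim at 197, Fn1 at 172, Cd68 at 51.3, Pecam1 at 36.2, Kdr at 12.7 and Csf1r at 3.32. Those under 1 in SCLC were Lum (fibroblast), Cdh5, Tie1 and Emcn (endothelial) and Ptprc, Itgam and Adgre1 (immune). The part of these cell types in the HOX levels was not tested.

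**Figure D4:**
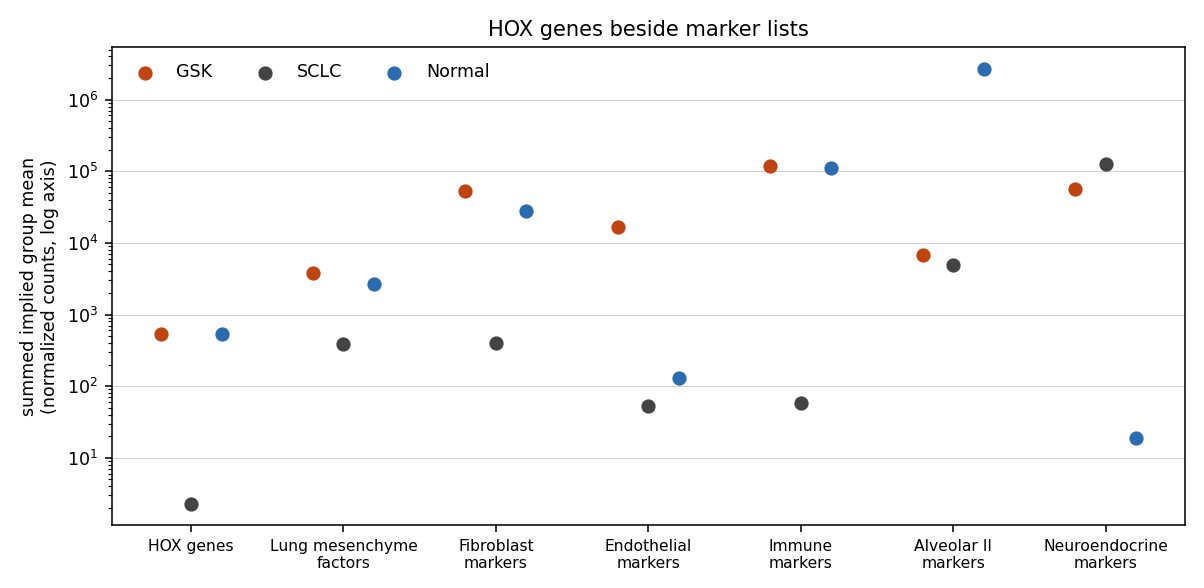
Summed implied means (log axis) of the 39 HOX genes, of the lung mesenchyme transcription factors and of 5 lists of cell type markers, in GSK, SCLC (from the table with Normal) and Normal. The sums of the HOX genes, the mesenchyme factors, the fibroblast markers and the immune markers are lower in SCLC than in GSK and Normal. The immune sum is mostly Lyz2 in GSK and Normal, while Ptprc had 12562 in GSK and 144 in Normal. The endothelial sum is high in GSK alone, the alveolar type II sum in Normal alone. Of the 6 alveolar type II markers, 4 were called higher in GSK than in SCLC.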

How the data were processed

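The 9 organoid libraries were prepared with a kit that the labels call stranded and sequenced on an Illumina NovaSeq. Reads were aligned with STAR 2.7.9a to GRCm39, per the submitters' processing notes, while counting tool and annotation are not stated there. The 2 tables hold the authors' own comparisons, 3 libraries against 3, with column names as DESeq2 writes them in its output, per the file headers by the authors. The signal column deposited by the authors is each gene's mean normalized count over 6 libraries. The authors' log2 fold change and standard error are on the log2 scale. The score column holds the authors' statistic, fold change divided by standard error. In the p-value columns are the authors' unadjusted and Benjamini-Hochberg adjusted p-values, present for 24719 genes in SCLC against Normal and 28376 in GSK against SCLC.

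Group means were computed from mean and fold change with Python 3.11.15 and pandas 2.3.3. The control of the second table was matched to SCLC on 13634 genes whose mean was 50 or more in each table: control over SCLC had a log2 ratio of 0.109 (median) with an SD of 0.0084, whereas control over Normal had an SD of 3.03. Calls use the authors' adjusted p under 0.05 over all genes; the fitting of library counts that had been planned was not possible without library values. Depth and spread per library were not analysed here, and floors cover counting error only. Alternatives were a stricter threshold, a null of log2 fold change 1, other filters on low means, other scalings and other thresholds on the mean. The script was tested on simulated data. Every HOX gene above 1 in any group is named except 1 that is not reported here by name, though counts and sums include it, and up to 4 called genes per related list and comparison with the largest change (100 genes in 8 lists, of which 99 had a row; 34 markers in 5 lists); others named beyond these, such as Ezh2 in GSK, Hoxb5os in GSK and the markers, were chosen after their values were seen. The members and lists were chosen with earlier results of these data known.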

Additional observations from a re-analysis of the deposited data

How the results depend on the processing

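No direction of a HOX gene could turn under the alternatives, which leave the fold change as it is or shift it by 0.51 at most on the log2 scale. Among the HOX genes with a value under an alternative, the call changed for Hoxa7 alone, in GSK against SCLC with a null of log2 fold change 1 (adjusted p = 0.0584), which left 9 of 10 higher. An adjusted p under 0.01, no filter on low means, recentring and equal totals left 12 lower in SCLC and 10 higher in GSK. With a mean of at least 10 over 6 libraries, fewer genes were tested, and 7 were lower in SCLC and 5 higher in GSK. The count above the threshold on the mean fell to 10 in GSK and 12 in Normal above 5, and to 8 in GSK and 11 in Normal above 10, with 0 in SCLC. Over the 8 related lists, the null of log2 fold change 1 left 2 lower in GSK of 19, and 8 higher and 13 lower in SCLC of 24 and 23. Recentring left 12 lower in GSK, and equal totals gave 28 higher and 6 lower, in place of 18 and 19.

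No paired analysis was possible because the tables hold no column for a single library. For the same reason the alternatives that leave out a replicate, use the replicate number as a block or use another tool were not run, so it is not known whether 1 library carries a result. Means of 1 to 3 normalized counts limit what can be said of the 7 lowest genes in each of GSK and Normal.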

Other observations

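Mir10a, the microRNA gene between Hoxb4 and Hoxb5, had an implied mean of 4.77 in GSK and 0.0877 in SCLC (log2 fold change 5.76 ± 2.51, adjusted p = 0.0571 in the authors' deposited table), and 0.647 in Normal. Hoxb3os, antisense to Hoxb2 and Hoxb3, had 3.02 in GSK, 0.0769 in SCLC and 1.39 in Normal, and did not pass in GSK against SCLC (the authors' deposited table gave an adjusted p of 0.159). Evx1, the homeobox gene at the far end of Hoxa, was under 1 in all groups, with 0.738 in GSK, 0.279 in SCLC and 0.225 in Normal, and Evx2, beside Hoxd13, is listed at 0. Hotair and Hottip, noncoding RNAs of Hoxc and Hoxa, are listed at 0 in both tables.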
